A study of Mus musculus with 27 samples.

Results

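Voltage-gated calcium and sodium channels were followed through mouse tissues and cells in which the transcription factor Nkx2.2 was mutated or induced. The members are all genes whose symbol begins with Cacna, Cacnb or Cacng, or with Scn and a digit. These make 40 genes, and 39 of them reached at least 10 counts in 2 or more libraries of at least 1 table, Scn10a being the exception. That count was reached by 37 of 40 members among 55536 genes in the embryonic pancreas, by 31 of 39 among 26487 genes in islets and by 35 of 40 among 39017 genes in neural progenitors.

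The RNA libraries came from E15.5 embryos (whole pancreas), from islets of mice aged 8 or 4 weeks and from motor neuron progenitors made from mouse embryonic stem cells. The E15.5 pancreata were from wildtype controls (3 libraries) or from Nkx2.2SDmut embryos (4 libraries), whose Nkx2.2 is mutated in its SD domain, a region conserved among NK2-type homeodomain proteins. Islets of 8 weeks came from controls (2) or carried the SD mutation specifically in beta cells (betaSDmut, 3), and islets of 4 weeks came from controls (2) or from mice labelled betaKO (2). The Cre line or promoter behind the beta-cell alleles is not given in the labels. Progenitors were taken on differentiation day 4. The untreated iNkx2.2 line (pMN, 3) was compared with the same line after doxycycline, which switched on a FLAG-tagged wildtype Nkx2.2 (iNkx2.2, 3). A separate stem cell line given doxycycline expressed FLAG-tagged Nkx2.2 with the same SD mutations as the mice (iSDmut, 2), so mutant transgene and cell line cannot be told apart. ChIP-seq, which sequences the DNA bound by a protein, was made for Nkx2.2 in the insulinoma-derived mouse beta-cell line MIN6. The labels do not say that every library came from a separate animal or culture, so p-values measure the spread between these libraries, which may in part be technical.

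Library totals ran from 38447596 to 41840638 counts at E15.5, from 12398041 to 32385406 in islets and from 17757991 to 46840701 in progenitors. The libraries labelled betaKO held Nkx2-2 at 78.7 ± 20.02 CPM (counts scaled to library size after TMM normalization, SD, n = 2) beside 89.4 ± 18.6 (n = 2) in their controls, a log2 fold change of -0.18 (SE 0.24, adjusted p = 0.779, edgeR's quasi-likelihood test). This check did not separate them, and betaKO is used below only as the name on the label. The 4-week samples also carry the molecule label genomic DNA, while their columns hold counts per gene that were read here as RNA. The SD mutation changes the protein and cannot be checked by gene counts. Nkx2-2 stood at 9.25 ± 3.36 CPM in pMN (n = 3), 355 ± 20.1 in iNkx2.2 (n = 3) and 246 ± 2.40 in iSDmut (n = 2). Every iSDmut library lay below every iNkx2.2 library (log2 fold change -0.53, adjusted p = 0.370, edgeR). The level of Nkx2-2 RNA thus cannot be told apart from mutation and cell line between these 2 groups. At E15.5, 2 libraries stood apart by skeletal muscle markers and 1 by neuronal markers, as given with the embryonic values below. In bulk RNA, fewer cells of a type and less RNA per cell cannot be told apart.

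A voltage-gated calcium channel is built around a pore-forming alpha1 subunit (Cacna1 genes) that opens on depolarization, with an intracellular beta subunit (Cacnb) and an extracellular alpha2delta subunit (Cacna2d) that govern its trafficking and gating. L-type, P/Q-, N- and R-type pores need strong depolarization, whereas T-type pores open near the resting potential, and most gamma proteins (Cacng) serve chiefly as partners of glutamate receptors in neurons. Sodium channels pair a pore (Scn1a to Scn11a) with single-pass beta subunits such as Scn3b. In beta cells these channels shape the electrical activity that couples glucose to insulin release.

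The tissues differed in which subunits stood highest. In islets, by the authors' FPKM (fragment counts scaled for gene length and library size), the 4 highest means over 9 libraries were those of Cacnb3, Cacna2d1, Cacna1d and Cacnb2. Cacnb3, a beta subunit, had FPKM of 26.9 and 26.9 in 8-week controls, 20.7, 23.8 and 22.5 in betaSDmut, 37.3 and 44.6 in 4-week controls and 37.4 and 39.2 in betaKO. Cacna2d1, an alpha2delta subunit, had FPKM of 32.6 and 37.0, then 30.2, 32.4 and 32.6, then 28.9 and 29.99, then 25.8 and 27.3 in the same order. These 2 subunits overlapped in level across the islet libraries. Cacna1d, the pore of the L-type channel Cav1.3, had FPKM of 23.4 and 23.7, then 20.3, 18.6 and 17.2, then 19.7 and 20.3, then 13.7 and 12.9. Cacnb2, another beta subunit, had FPKM of 12.5 and 12.1, then 15.7, 14.1 and 14.2, then 11.6 and 13.8, then 9.67 and 13.5. By FPKM, Cacna1d lay above Cacnb2 in every islet library but betaKO replicate 2. The place of Cacnb2 depended on the length measure. By CPM per kilobase of exon, used below for E15.5, Cacnb3 (15.9), Cacna2d1 (14.3) and Cacna1d (10.45) still had the highest islet means. Cacnb2 then averaged 3.08, below the sodium pores Scn9a (7.22) and Scn3a (4.50) and the calcium pores Cacna1a (6.87) and Cacna1c (3.24).

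In progenitors the highest FPKM means were those of Cacng7, Cacna1g, Cacnb3 and Cacng4. Cacng7, a gamma-family protein, had FPKM of 12.4, 13.4 and 13.6 in pMN, 24.3, 25.4 and 24.9 in iNkx2.2 and 24.7 and 20.8 in iSDmut. Cacna1g, the pore of the T-type channel Cav3.1, had FPKM of 7.03, 5.01 and 5.45, then 25.5, 22.8 and 19.4, then 13.7 and 10.7. Both lay lower in every pMN library than in every library with a transgene switched on. Cacnb3 had FPKM of 8.62, 7.94 and 11.2, then 16.4, 15.6 and 21.5, then 10.8 and 13.1. Cacng4, also a gamma-family protein, had FPKM of 4.10, 4.80 and 6.78, then 7.41, 6.06 and 6.08, then 6.71 and 5.72, and its 3 groups overlapped. The kind of calcium pore also differed: summed FPKM of the L-type genes ran from 22.1 to 34.0 in the islet libraries and from 0.477 to 1.63 in progenitors. Summed FPKM of the T-type genes ran from 1.38 to 4.63 in islets and from 6.45 to 36.6 in progenitors. The 2 tables were normalized separately, so each pair of sums is to be read within its own table.

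At E15.5 no FPKM was used, and levels were set per length as CPM per kilobase of exon. Cacng7 stood at 12.4, 17.8 and 20.4 CPM per kilobase in controls and 14.2, 19.7, 9.98 and 11.2 in SDmut. Cacnb3 stood at 7.44, 12.3 and 13.1 in controls and 11.3, 14.5, 5.45 and 7.24 in SDmut. Cacna1g stood at 4.48, 10.2 and 11.5 CPM per kilobase in controls and 9.79, 10.2, 3.84 and 5.12 in SDmut. Cacna1h, the pore of the T-type channel Cav3.2, stood at 4.56, 6.11 and 7.13 in controls and 5.31, 7.63, 4.06 and 6.24 in SDmut. For each of these 4 highest genes, controls and SDmut overlapped.

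Nkx2.2 binding near channel genes was read from the 6473 final sites of the MIN6 ChIP-seq. The authors' deposited table joined a site to 5 of the 14 members it lists (35.7%), beside 26% of its 9971 genes. These were Cacna2d1, Cacna1a (pore of the P/Q-type channel), Cacnb2, Scn8a (a sodium pore) and Scn3b (a sodium beta subunit). Counting any final site in the gene or within 50 kb gave 19 of 40 members (47.5%) beside 31.8% of 22028 protein-coding genes. The members are long genes, with a median length of 104706 bp against 17318 bp over protein-coding genes, and the part of length in these shares was not tested. Cacna1c, the pore of the L-type channel Cav1.2, held 8 sites, Cacnb2 held 5 and Cacnb4 held 3. The 5 sodium pore genes Scn3a, Scn2a, Scn1a, Scn9a and Scn7a lie together within 1328 kb of chromosome 2 and held 0 final sites within 50 kb.

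**Figure D1:**
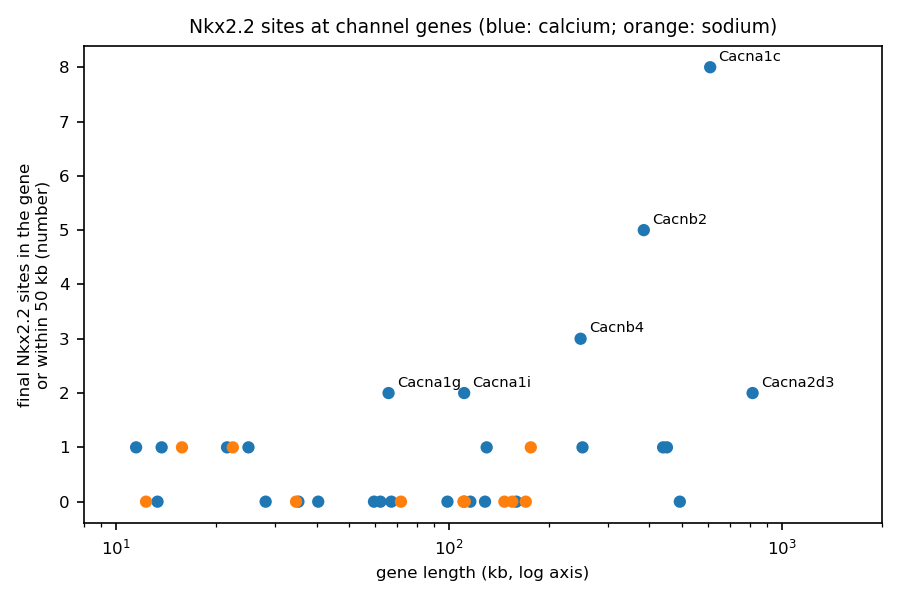
Number of final Nkx2.2 ChIP-seq sites in member genes or within 50 kb (vertical axis) against gene length in kb on a log axis, 1 point per gene, calcium genes in blue and sodium genes in orange. Cacna1c has 8 sites and Cacnb2 has 5, and both are long genes.

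The sequence at 4 sites is shown because they lie at members whose RNA is described below. Scn3b differed in 8-week islets, Cacna2d1 and Cacna1g differed in progenitors, and Cacnb2 was among the highest in islets by FPKM. The sites were bound in MIN6 beta cells, and binding in progenitors was not measured. In islets Cacna2d1 and Cacna1g did not pass. Their log2 fold changes there were -0.15 and 0.40 at 8 weeks and 0.04 and 1.15 at 4 weeks by edgeR. Windows are from the plus strand of GRCm38 (mm10), centred on the site. Capitals mark any of 3 pentamers, or their reverse complements. The pentamer AAGTG is the core of the known NK2-type motif. The pentamer GAGTG and a further pentamer, GTTGC, were chosen after the windows had been seen. The Scn3b site lies 290 bp past the gene's start, in a UTR exon, and is cut to 30 bases (chr9:40269492-40269521). The Cacna2d1 site lies at -84357 bp from the gene's start, outside annotated genes (chr5:15850284-15850384), and ranked 213 among all final sites by mean log2 CPM. The Cacna1g window is in an intron (chr11:94468948-94469048), and the Cacnb2 window is in an intron 5664 bp past the start (chr2:14608702-14608802). The Scn3b, Cacna1g and Cacnb2 sites shown ranked 1094, 2484 and 2039. Another Cacnb2 site ranked 421, and a site in an intron of Cacna2d1 ranked 5051 and held none of the 3 pentamers.
Scn3b: gacgacggctgGAGTGgggacacgcccagc
Cacna2d1: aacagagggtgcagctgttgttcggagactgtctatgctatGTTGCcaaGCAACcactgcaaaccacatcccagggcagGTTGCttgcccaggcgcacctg
Cacna1g: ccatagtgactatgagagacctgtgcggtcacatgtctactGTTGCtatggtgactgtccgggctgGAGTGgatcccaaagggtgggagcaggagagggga
Cacnb2: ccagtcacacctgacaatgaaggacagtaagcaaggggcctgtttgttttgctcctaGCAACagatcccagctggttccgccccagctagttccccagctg
In windows of 101 bp on both strands, AAGTG was in 14.3% of the 35 member sites, 22.7% of all final sites and 18.4% of RefSeq promoter windows of the same length. GAGTG was in 48.6%, 40.8% and 19.2%, and GTTGC in 45.7%, 39.8% and 13.3%, in the same order. At least 1 of the 3 was in 29 of the 35 member sites, so not every member site held a pentamer as the 4 shown do. A match describes the letters and is not by itself a bound motif.

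In 8-week islets, the betaSDmut libraries held more RNA of the sodium pore Scn3a and of the sodium beta subunit Scn3b, and less of Cacna1e, the pore of the R-type calcium channel. Counting all members, 2 were higher and 2 lower of 31 tested (12.9%), beside 7.94% of all genes tested (4.07% higher and 3.87% lower). The median log2 fold change was -0.15 over the members and 0.01 over all genes. Scn3a stood at 36.5 and 38.4 CPM in controls and 83.1, 106 and 98.5 in betaSDmut. All 3 mutant values lay above both controls, a log2 fold change of 1.35 (SE 0.12, adjusted p = 0.00477, edgeR's quasi-likelihood test). Scn3b stood at 11.8 and 12.1 CPM in controls and 20.1, 23.4 and 22.0 in betaSDmut. The groups did not overlap, with a log2 fold change of 0.87 (SE 0.10, adjusted p = 0.0081, edgeR).

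Cacna1e stood at 4.49 and 5.94 CPM in controls and 1.7, 1.36 and 1.96 in betaSDmut. Every mutant library was below both controls (log2 fold change -1.65, SE 0.25, adjusted p = 0.020, edgeR). The authors' deposited table called 2 of its 23 listed members higher and 2 lower, with log2 fold changes of 1.34 for Scn3a, 0.86 for Scn3b and -1.65 for Cacna1e. Without control replicate 1 or 2, which leaves 1 control library whose spread is assumed to be that of the mutants, edgeR called 0 members, beside 0.282% and 0.234% of all genes. Without betaSDmut replicate 1 it called 7 members, beside 18.1% of all genes, and without betaSDmut replicate 2 it called 2, beside 2.52%. DESeq2 called 6 members, beside 11.8%. Scn3a and Scn3b were called in 9 of 11 alternatives, and Cacna1e in 7 of 11. Over the same libraries, the delta cell marker list summed to 2083 to 3089 CPM in controls and 4953 to 6524 in betaSDmut. Much of that rise was Rbp4, the only 1 of its 4 genes called, with means of 132 and 1705 CPM. Sst had means of 2432 and 3786 CPM. The beta cell list summed to 236500 to 241700 CPM in controls and 199000 to 219500 in betaSDmut, and the mesenchyme list to 130.8 to 174.4 and 55.0 to 107.9. The motor neuron list summed to 121.0 to 122.2 and 222.0 to 248.1, with Isl1 and Mnx1 called higher, and the skeletal muscle list to 1.91 to 1.99 and 3.62 to 4.60. The immune list summed to 7.93 to 8.40 in controls and 5.50, 4.92 and 63.45 in betaSDmut. Their part in these differences was not tested.

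Scn9a, the sodium pore with the highest mean FPKM in islets, stood at 113 and 119 CPM in controls and 97.3, 95.8 and 74.6 in betaSDmut, which did not pass (log2 fold change -0.38, adjusted p = 0.115, edgeR). The ratio of Scn3a to Scn9a in FPKM was 0.309 and 0.306 in controls and 0.842, 1.09 and 1.28 in betaSDmut, so the groups were apart in this untested ratio. Scn7a, an atypical sodium-channel-like pore, stood at 3.05 and 5.29 CPM in controls and 13.4, 14.99 and 7.43 in betaSDmut without passing (log2 fold change 1.5, adjusted p = 0.0787, edgeR). It passed by DESeq2 (adjusted p = 0.00225), and by edgeR with the replicate block (0.0249) and without betaSDmut replicate 3 (0.0232). By role, the 3 T-type pores had log2 fold changes from 0.40 to 0.74 and the 4 beta subunits from -0.29 to 0.22, and none of them passed.

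**Figure D2:**
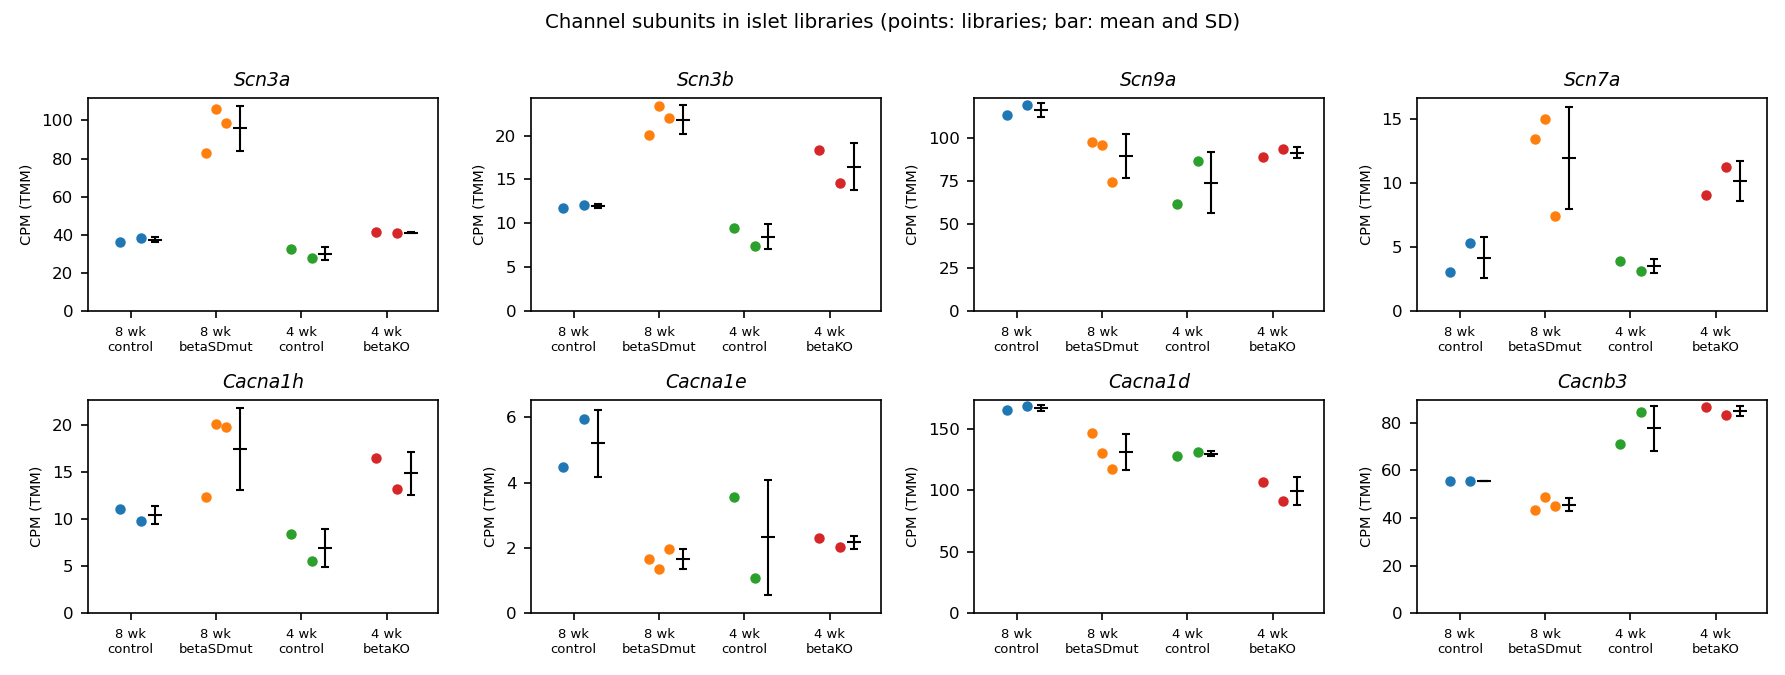
TMM-scaled CPM of 8 channel genes in 8-week and 4-week islet libraries, with points for libraries and bars for mean and SD. The betaSDmut points of Scn3a, from 83.1 to 106, lie above all other islet libraries.

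In 4-week islets, 0 of 29 members passed between the libraries labelled betaKO and their controls by edgeR's quasi-likelihood test, beside 1.56% of all genes. At an unadjusted p under 0.05 there were 10 members, 9 of them higher, beside 15.2% of all genes, and DESeq2 called 4 (Scn7a, Scn3b, Cacna2d2 and Cacna1h), beside 5.24%. The median log2 fold change was 0.28 over the members and -0.00 over all genes. Scn7a stood at 3.9 and 3.10 CPM in controls and 9.06 and 11.2 in betaKO (log2 fold change 1.52, SE 0.24, adjusted p = 0.053, edgeR). Scn3b stood at 9.52 and 7.46 in controls and 18.4 and 14.6 in betaKO (log2 fold change 0.95, SE 0.20, adjusted p = 0.10, edgeR). Cacna2d2, an alpha2delta subunit, stood at 6.54 and 4.48 in controls and 14.2 and 10.9 in betaKO (log2 fold change 1.18, SE 0.25, adjusted p = 0.110, edgeR). In each of these 3 genes the groups did not overlap. By role, log2 fold changes ran from 0.71 to 1.15 over the 3 T-type pores, from 0.04 to 1.54 over the 4 alpha2delta subunits and from -0.38 to -0.07 over the 2 L-type pores tested. The authors' deposited table of all islet groups lists 14 members and called 0 between betaKO and all controls. Between betaSDmut and all controls, the authors' deposited table called Scn3a (1.49), Scn3b (1.08), Scn7a (1.52) and Cacna1h (0.96) higher and Cacnb3 (-0.53) lower on the log2 scale. Between betaKO and betaSDmut, the authors' deposited table called Cacnb3 higher (0.94) and Scn3a lower (-1.17). This last comparison sets 4-week against 8-week libraries, and the comparisons with all controls mix both ages. Age and protocol therefore enter these calls. Against controls of the same age, Cacnb3 had log2 fold changes of -0.29 at 8 weeks and 0.13 at 4 weeks by edgeR, and neither passed.

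Several marker lists moved alongside. The alpha cell list summed to 24960 to 29170 CPM in 4-week controls and 50570 to 62400 in betaKO, and the delta cell list to 1893 to 3440 and 5143 to 6436. The beta cell list summed to 210300 to 214900 in controls and 166700 to 178900 in betaKO. The pancreatic polypeptide gene stood at 2577 to 2745 CPM and 6592 to 8198, the acinar list at 3197 to 5810 and 7001 to 22260, and the mesenchyme list at 125.7 to 131.3 and 239.6 to 295.1. The neuron list stood at 75.6 to 77.2 in controls and 90.6 to 99.8 in betaKO, and the Schwann list at 91.0 to 97.2 and 108.8 to 129.4. The motor neuron list stood at 125.6 to 127 and 168.1 to 222.4, and the endothelium list at 233.6 to 283.7 and 165.7 to 207.6. The immune and neural progenitor lists were also lower in betaKO without overlap, while the duct, skeletal muscle and smooth muscle lists overlapped. The part of these lists in the channel values was not tested.

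The changes in betaSDmut and in betaKO were compared as the difference of the 2 log2 fold changes, each against controls of its age. Of 33 members 0 passed by edgeR's quasi-likelihood test, beside 1.21% of all genes. At an unadjusted p under 0.05 there were 6 members, beside 13.7% of all genes, and DESeq2 called 2 (Scn3a and Cacng4), beside 4.19%. Scn3a stood at 32.5 and 27.6 CPM in 4-week controls and 41.3 and 41.1 in betaKO, and the difference was 0.90 (SE 0.17, adjusted p = 0.053, edgeR). Without betaSDmut replicate 1 it passed. Cacna2d4, an alpha2delta subunit, stood at 3.05 and 3.55 CPM in 8-week controls, 2.91, 2.69 and 3.23 in betaSDmut, 1.64 and 1.67 in 4-week controls and 3.61 and 4.14 in betaKO. Cacng4 stood at 2.1 and 2.86, then 1.87, 1.61 and 1.88, then 2.41 and 2.45, then 5.62 and 4.53 in the same order. In both genes the betaKO libraries were the highest of the islets, and the differences were -1.39 (SE 0.32, adjusted p = 0.0906) and -1.53 (SE 0.36, adjusted p = 0.096) by edgeR. Age, laboratory protocol and genotype differ together between the ages, and cannot be told apart in the levels or in the difference of the 2 changes.

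In progenitors, wildtype Nkx2.2 was switched on by doxycycline for about 16 h. No sample received doxycycline without a transgene, so drug and transgene cannot be told apart. Compared with untreated pMN, iNkx2.2 held more RNA of the T-type pores Cacna1g and Cacna1h and of the beta subunits Cacnb3 and Cacnb1. It also held more of Cacng7, Scn9a and Cacna2d4. The alpha2delta subunit Cacna2d1 and the R-type pore Cacna1e fell. These were 7 members higher and 2 lower of 34 tested (26.5%), beside 9.49% of all genes (4.71% higher and 4.78% lower). The median log2 fold change was 0.74 over the members and -0.01 over all genes, and 28 of the 34 values were positive. Markers moved as well: the neuron list summed to 369.8 to 735.5 CPM in pMN, 1043 to 1388 in iNkx2.2 and 1093 to 1171 in iSDmut, with all 6 genes above 0. The neural progenitor list summed to 827 to 911.5, 524.6 to 528.3 and 512.2 to 768.7. Of its 4 genes, Olig2 averaged 254, 5.92 and 56.4 CPM and Sox2 194, 135 and 138. Much of the change of that sum in iNkx2.2 was therefore Olig2 alone. The motor neuron list summed to 44.3 to 101.4, 28.8 to 61.4 and 71.5 to 91.0, with 3 of its 4 tested genes called lower in iNkx2.2. Their part was not tested. Both comparisons with pMN below use the same control libraries.

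Cacna1g stood at 39.1, 29.3 and 35.1 CPM in pMN, 116, 116 and 117 in iNkx2.2 and 62.2 and 65.5 in iSDmut. The 3 groups did not overlap, with iSDmut between the others. It was 3.37-fold higher in iNkx2.2 than in pMN (log2 fold change 1.75, SE 0.11, adjusted p = 7.93e-05, edgeR) and 1.85-fold higher in iSDmut (log2 fold change 0.89, SE 0.12, adjusted p = 0.00722, edgeR). Against iNkx2.2, iSDmut was lower by a log2 fold change of -0.87 (SE 0.13, adjusted p = 0.0350, edgeR), which was the only member of 34 called there (2.94%, beside 0.281% of all genes, 0.121% lower), while DESeq2 called 2, beside 3.28%. That last call was kept in 9 of 16 alternatives, whose adjusted p ran from 1.05e-06 to 0.275. It was lost without any 1 of pMN replicates 1 and 3, iNkx2.2 replicates 1, 2 and 3 and iSDmut replicate 1, and with lane 2 libraries alone. The fits without iSDmut replicate 1 and of lane 2 leave 1 iSDmut library, whose spread is then taken from the other groups.

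Cacna1h stood at 16.0, 8.74 and 16.8 CPM in pMN, 59.1, 33.5 and 55.5 in iNkx2.2 and 36.8 and 41.1 in iSDmut. All 5 libraries with a transgene were above all 3 pMN libraries. The log2 fold change was 1.83 in iNkx2.2 (SE 0.27, adjusted p = 0.00424, edgeR) and 1.49 in iSDmut (SE 0.29, adjusted p = 0.0271, edgeR). Cacng7 stood at 27.3, 30.6 and 28.4 CPM in pMN, 49.9, 50.6 and 49.3 in iNkx2.2 and 53.7 and 41.6 in iSDmut. It too was higher in every library with a transgene, by 0.80 (SE 0.12, adjusted p = 0.00405) and 0.73 (SE 0.13, adjusted p = 0.018) on the log2 scale by edgeR. With Cacna1g these were the 3 members of 34 called for iSDmut against pMN (8.82%, beside 3.54% of all genes, 1.9% higher), while DESeq2 called 5, beside 8.65%. Without pMN replicate 1 or iSDmut replicate 1, only 1 member passed in that comparison, beside 1.09% and 1.88% of all genes.

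Cacnb3 stood at 38.2, 34.3 and 46.5 CPM in pMN, 70.6, 62.3 and 83.0 in iNkx2.2 and 47.3 and 53.7 in iSDmut. Its log2 fold change was 0.86 in iNkx2.2 (SE 0.15, adjusted p = 0.00861, edgeR) and 0.35 in iSDmut (adjusted p = 0.27, edgeR), and all 3 iNkx2.2 values lay above the others. Cacnb1, another beta subunit, stood at 8.24, 7.04 and 8.13 CPM in pMN, 14.1, 10.8 and 12.1 in iNkx2.2 and 11.7 and 9.89 in iSDmut, a change of 0.66 in iNkx2.2 (SE 0.17, adjusted p = 0.040, edgeR). Scn9a stood at 1.67, 0.971 and 1.82 CPM in pMN, 8.53, 4.52 and 4.49 in iNkx2.2 and 3.75 and 5.69 in iSDmut. Its log2 fold change was 1.97 in iNkx2.2 (SE 0.36, adjusted p = 0.012, edgeR) and 1.66 in iSDmut (adjusted p = 0.053, edgeR). Cacna2d4 had few reads, with 1, 2 and 4 counts in pMN, 27, 11 and 13 in iNkx2.2 and 6 and 14 in iSDmut (log2 fold change 2.06 in iNkx2.2, SE 0.51, adjusted p = 0.0356, edgeR).

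Cacna2d1 moved the other way. It stood at 60.7, 38.4 and 58.2 CPM in pMN, 32.6, 22.8 and 26.6 in iNkx2.2 and 78.0 and 51.4 in iSDmut. All iNkx2.2 values were below all others, with a log2 fold change against pMN of -0.94 (SE 0.22, adjusted p = 0.0292, edgeR), while iSDmut against pMN gave 0.30 (adjusted p = 0.524, edgeR). Between iSDmut and iNkx2.2 the difference was 1.24 (SE 0.24, adjusted p = 0.080, edgeR), which did not pass. Cacna2d1 did pass there by DESeq2 (adjusted p = 0.000162), and by edgeR with the replicate block (0.000751) and without iSDmut replicate 2 (0.0243), which leaves 1 iSDmut library. Cacna1e stood at 7.85, 2.18 and 7.58 CPM in pMN, 2.04, 0.985 and 1.13 in iNkx2.2 and 4.20 and 2.83 in iSDmut. It fell in iNkx2.2 (log2 fold change -2.05, SE 0.48, adjusted p = 0.031, edgeR), and pMN replicate 2 lay close to iNkx2.2. Scn4a, the skeletal muscle sodium pore, had the third smallest p between iSDmut and iNkx2.2 at 1.61, 1.34 and 1.66 CPM in iNkx2.2 and 0.168 and 0.665 in iSDmut (log2 fold change -1.81, adjusted p = 0.234, edgeR).

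Same-numbered pMN and iNkx2.2 libraries deviated together, and with the replicate number as a block, edgeR called 19 of 34 members, 17 higher and 2 lower, beside 29.6% of all genes. All 9 members named above were among them. The 10 added were all higher in iNkx2.2, and among them were Cacna1b, Cacna1d, Cacna1s, Cacng4, Cacng6, Scn11a, Scn2b, Scn3a and Scn3b. Without the block, 4 members passed when pMN replicate 1 or iNkx2.2 replicate 1 was left out, beside 2.88% and 2.66% of all genes. When iNkx2.2 replicate 2 or 3 was left out 5 passed, beside 5.41% and 5.02%, and with lane 2 libraries alone 5 passed, beside 6.42%. Cacna1g, Cacna1h, Cacnb3 and Cacng7 passed in 16 of 16 alternatives. The others called held less often: Scn9a in 14 of 16, Cacna1e in 10, Cacnb1 and Cacna2d4 in 9 each and Cacna2d1 in 8. By role, all 3 T-type, 3 L-type and 5 gamma genes tested had positive log2 fold changes in iNkx2.2, with medians of 1.75, 1.00 and 0.80. In iSDmut against pMN the same medians were 0.89, 0.56 and 0.02. The authors' deposited progenitor table lists 6 members, and called 5 higher and Cacna2d1 lower in iNkx2.2, and 3 higher in iSDmut.

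**Figure D3:**
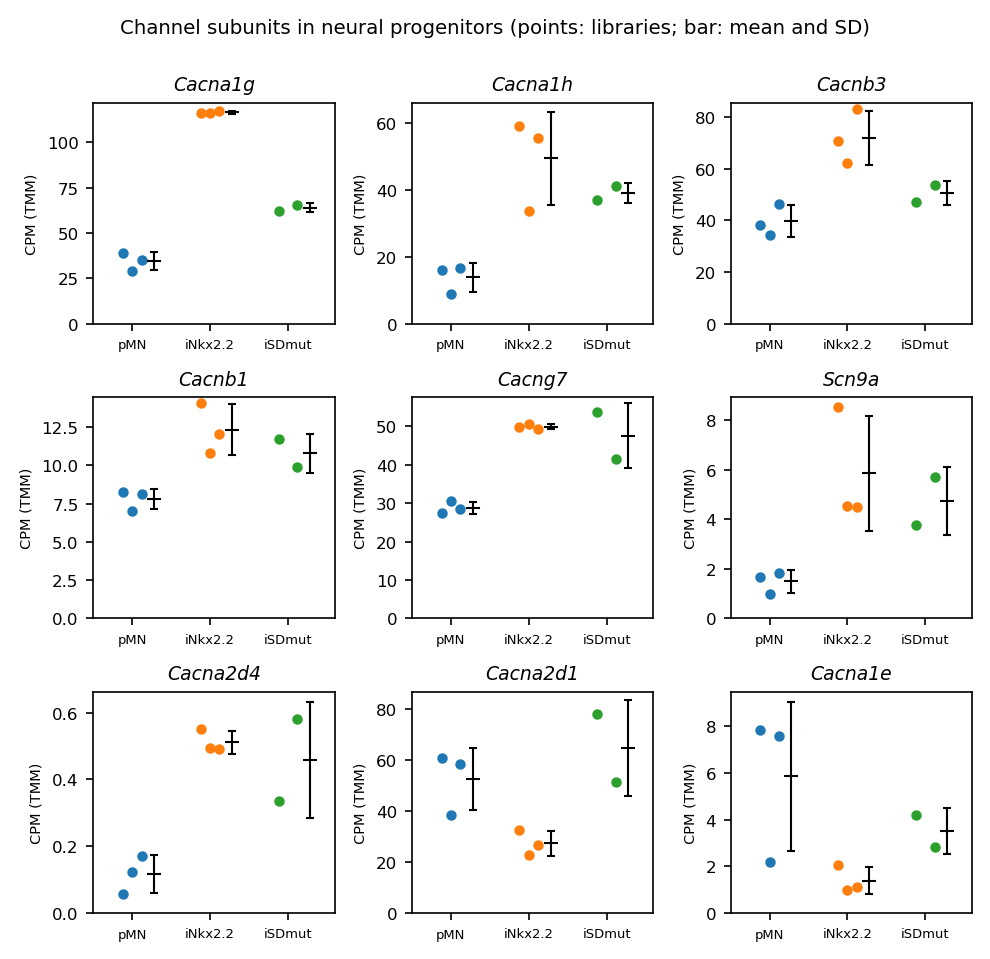
TMM-scaled CPM of 9 channel genes in pMN, iNkx2.2 and iSDmut libraries, with points for libraries and bars for mean and SD. Cacna1g separates the 3 groups, with iSDmut at 62.2 and 65.5 between pMN and iNkx2.2.

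**Figure D4:**
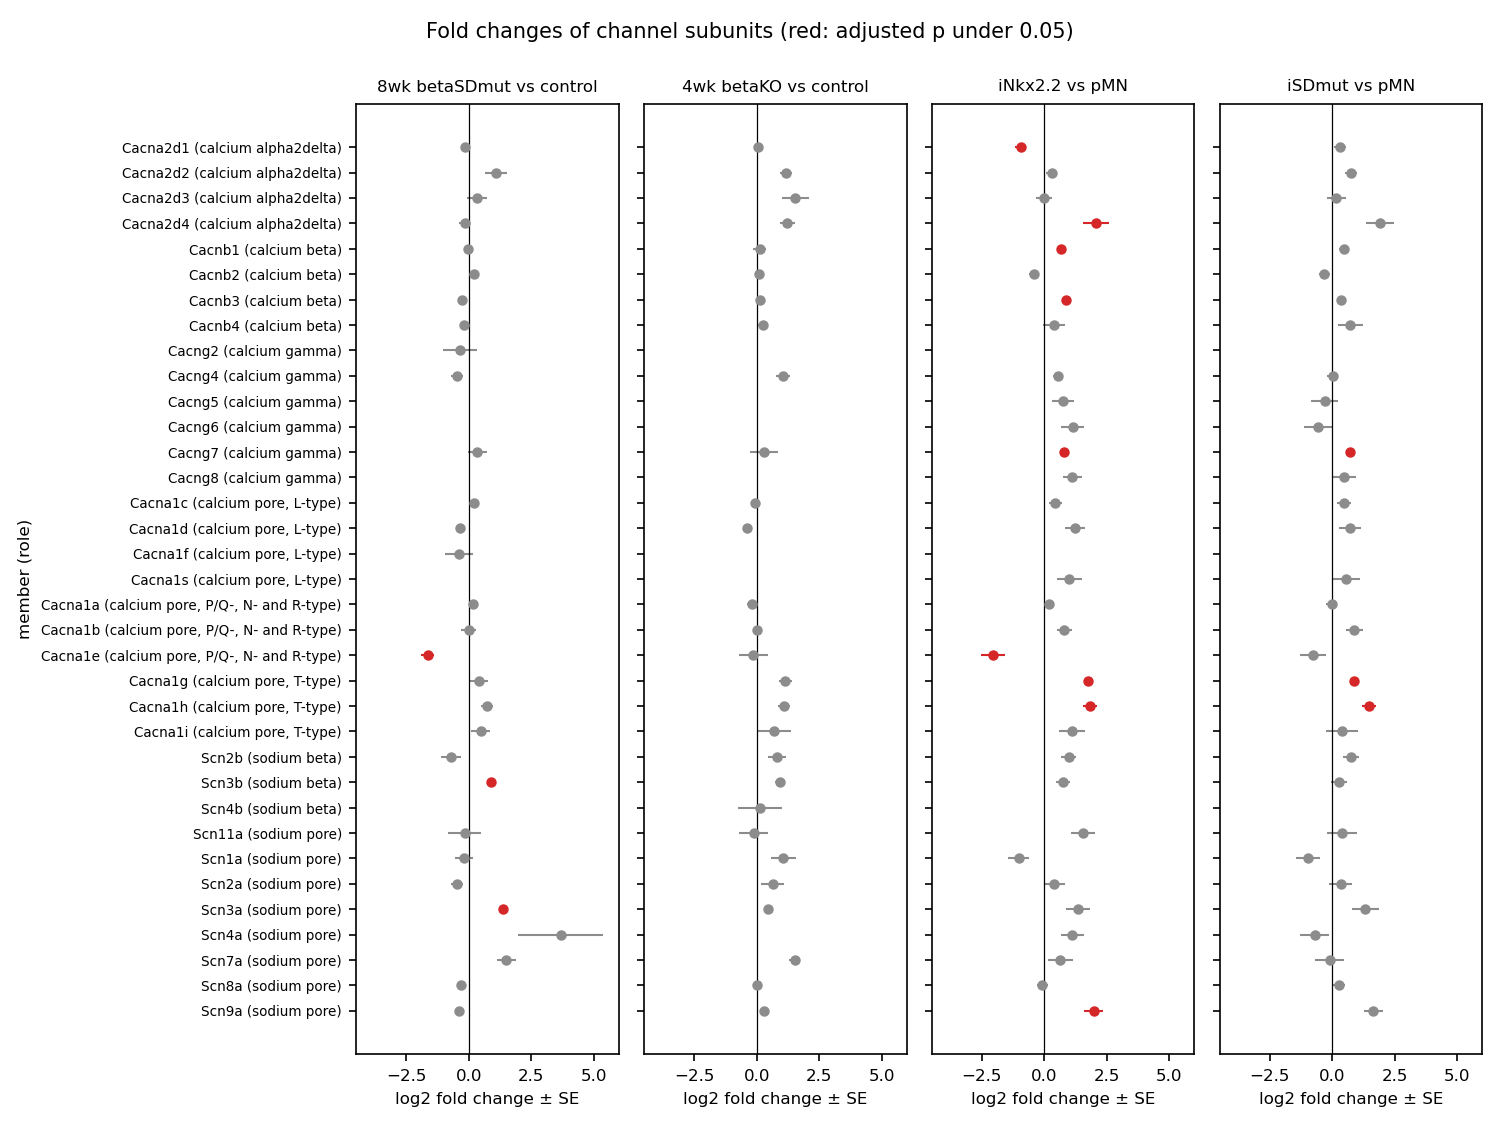
Log2 fold changes (edgeR, bars for SE) of tested members in 4 comparisons, ordered by role, red where the adjusted p was under 0.05. Red points include Scn3a, Scn3b and Cacna1e for betaSDmut, 9 members for iNkx2.2 and 3 for iSDmut, and there are 0 for betaKO.

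At E15.5, 0 of 35 members passed between SDmut and control by edgeR's quasi-likelihood test, beside 0.00534% of all genes. At an unadjusted p under 0.05 there was 1 member, beside 2.54% of all genes, and DESeq2 called 0, beside 0.119%. The median log2 fold change was -0.28 over the members and 0.01 over all genes, with 30 of 35 values negative. Scn9a stood at 2.45, 11.03 and 1.79 CPM in controls and 0.826, 2.53, 1.40 and 1.85 in SDmut (log2 fold change -1.62, SE 0.68, unadjusted p = 0.0457, edgeR). Cacna1d stood at 37.2, 40.1 and 34.4 CPM in controls and 31.4, 30.6, 30.5 and 35.2 in SDmut (log2 fold change -0.22, SE 0.10, unadjusted p = 0.051, edgeR). Cacng5, a gamma-family protein, stood at 0.170, 5.996 and 0.234 CPM in controls and 0.181, 0.568, 0.392 and 0.106 in SDmut (log2 fold change -2.76, SE 1.25, unadjusted p = 0.0606, edgeR). Control replicate 2 is the highest library for all 3 genes, and without it the Cacng5 value turned to 0.63 and the Scn9a value shrank to -0.36.

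Much of the spread in the embryonic values came with single libraries. Control replicate 2 was above all other 6 libraries for 18 of the 37 described members, and its neuron list summed to 383.9 CPM against 51.3 to 144.7 in the others. Control replicate 3 and SDmut replicate 2 were both above the other 5 for 10 of 37 members, and their skeletal muscle lists summed to 4976 and 5716 CPM against 11.4 to 68.0 in the others, with all 8 genes above 0. The 10 included Cacna1s, the pore of the skeletal muscle L-type channel, which stood at 0, 0.222 and 33.5 CPM in controls and 0.310, 33.2, 0 and 0.237 in SDmut. The muscle gamma subunit Cacng1 stood at 0.242, 0.173 and 13.1 CPM in controls and 0.129, 12.3, 0.0735 and 0 in SDmut. Scn4a stood at 0.242, 0.173 and 5.27 CPM in controls and 0.387, 6.44, 0.270 and 0.211 in SDmut. Each of these 3 genes was high in the same 2 libraries, 1 of each group. The part of muscle and neuronal RNA in the comparison was not tested. The beta cell list summed to 290.2 to 817.6 CPM in controls and 54.8 to 107 in SDmut.

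**Figure D5:**
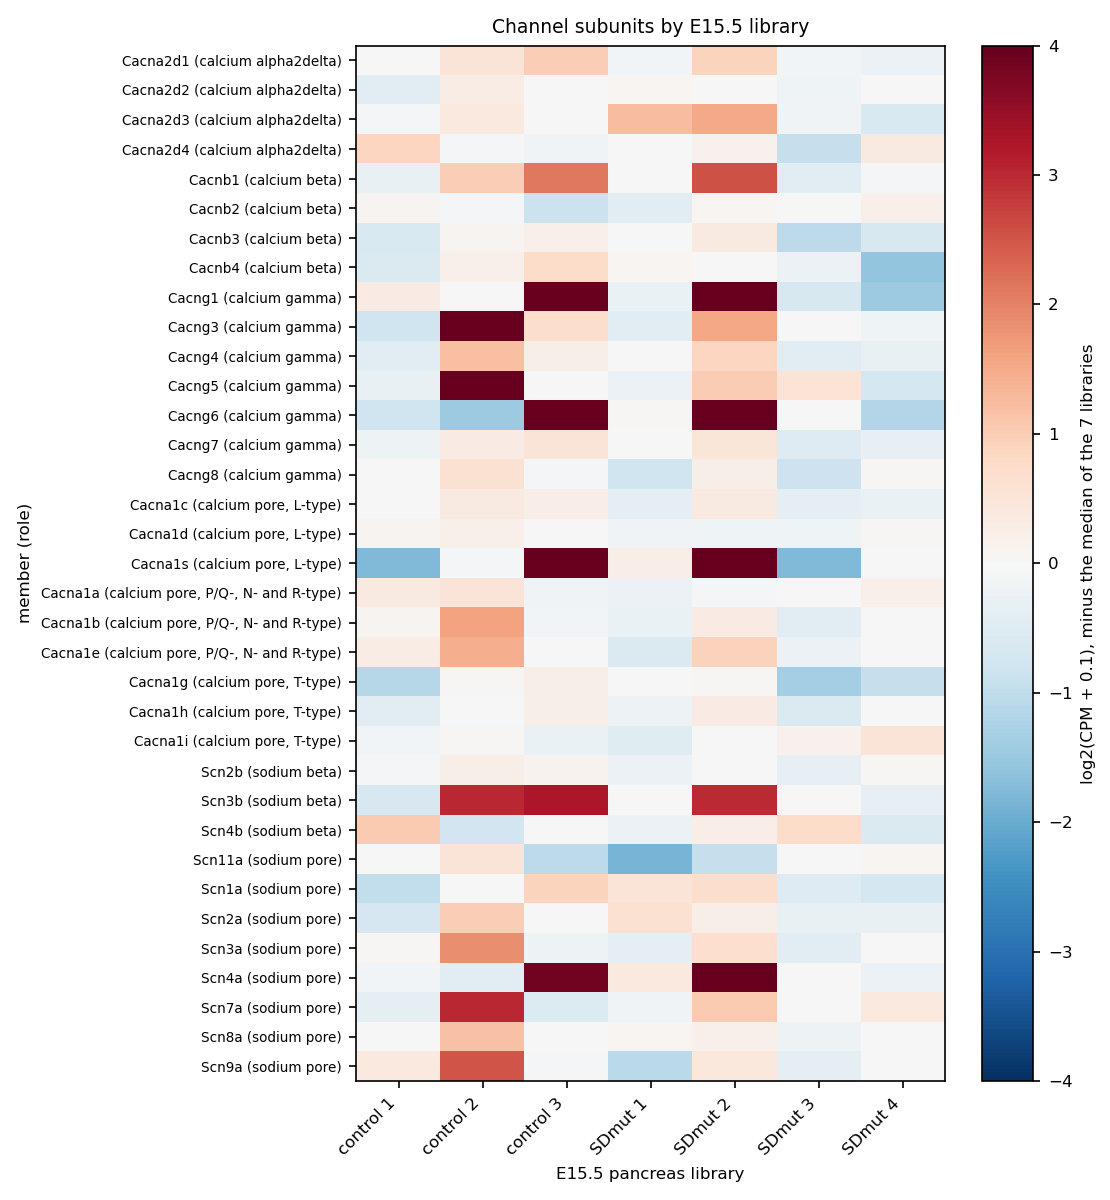
Described members (rows, with role) in the 7 E15.5 libraries (columns), as log2(CPM + 0.1) minus the median of the libraries, with colours limited at 4. Control 3 and SDmut 2 are both red for Cacna1s, Cacng1, Cacng6 and Scn4a, and control 2 is red for Cacng3 and Cacng5.

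Beyond the subunits, 40 partner genes of these channels and of calcium handling were read (sodium channel partners, calcium channel partners, the sodium leak complex, and store-operated and intracellular calcium genes). At 8 weeks 3 of 38 were higher and 4 lower by edgeR, beside 7.94% of all genes called in either direction. The higher were Fgf12 (log2 fold change 1.20), which binds sodium channels, and the inositol trisphosphate receptors Itpr1 (0.48) and Itpr2 (1.93). The lower were Itpr3 (-0.57), Rimbp2 (-0.41), the ryanodine receptor Ryr3 (-1.31) and Tpcn1 (-0.70). At 4 weeks Itpr1 was higher (0.84) and Itpr3 lower (-1.01), 1 gene each of 38, beside 1.56% of all genes. The 2 islet effects differed for Fgf12 (0.74) and Itpr2 (3.42) among 39, beside 1.21% of all genes.

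In progenitors 5 of 39 partners were higher in iNkx2.2 than in pMN and 1 was lower, beside 9.49% of all genes in either direction. Unc80 (3.86) and Fam155a (2.57), parts of the sodium leak channel complex, were higher, as were Fgf14 (1.5), Tpcn1 (1.01) and Orai2 (0.68), while the ankyrin gene Ank2 was lower (-0.94). In iSDmut, Unc80 (2.72) and Fam155a (2.01) were higher than in pMN, beside 3.54% of all genes called. Fgf14 was lower in iSDmut than in iNkx2.2 (-2.06), the only one of 39 called there, beside 0.281% of all genes. At E15.5, edgeR called 0 of 40.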

How the data were processed

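The authors deposited gene-level read counts for 3 RNA tables, FPKM for islets and progenitors, a normalized signal (counts divided by size factors) for E15.5, and tables of log2 fold changes and p-values from their own comparisons. They also deposited log2 CPM and event counts of ChIP-seq sites. The submitters' processing notes name STAR, Cufflinks, DESeq2, edgeR 3.20.9, limma 3.34.9, bedtools 2.17.0 and mm10, and the counting rule and use of strand are not given in the sources used here. Exons of Cacna1s, Cacnb4, Cacnb2, Cacng2 and Cacna1d overlap antisense genes, so their reads cannot be fully told apart. Of per-sample columns, 1 was of another sample and was not used, and 0 rows lacked a gene name. The E15.5 normalized signal was not used for levels.

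Counts were fitted over all genes of a table with edgeR 4.0.16 in R 4.3.3 (TMM, filterByExpr, robust quasi-likelihood test, Benjamini-Hochberg threshold 0.05), with E15.5 and each islet age fitted alone and the 3 progenitor groups together. SE is the absolute log2 fold change over the square root of F. The tests were checked on simulated data. Alternatives were DESeq2 1.42.0, other scalings and count filters, each library left out, a replicate block, lane 2 alone, and for ChIP-seq other site rules. The lane 2 fits of iSDmut were chosen after seeing the data. No 2 libraries of a group agreed within counting noise. Same-numbered pMN and iNkx2.2 libraries correlated in their deviations by 0.535, 0.513 and 0.568. The main fits nevertheless used no block, so their p-values ignore this pairing, which enters only in the replicate-block alternative.

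Values in every library are given for members called in a comparison, the 4 highest per length in a table, and the 3 smallest p where fewer than 3 were called. The 4 highest were taken by FPKM in islets and progenitors and by CPM per kilobase at E15.5. Some members are counted in totals, but their own values are not reported here. The members and lists were chosen with earlier results of these data known.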

Additional observations from a re-analysis of the deposited data

Results flagged for a closer look

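In E15.5 SDmut replicate 2, 9 of 37 described members lay far above the other 3 SDmut libraries by Dixon's 95% limit. Chance passes this limit in about 1 of 20 independent groups. Genes read in the same libraries are not independent, so that rate gives no expected number here. The CPM in SDmut replicate 2 were 27.9 for Cacna1c, 33.2 for Cacna1s, 59.4 for Cacna2d1, 48.7 for Cacnb1, 12.3 for Cacng1, 0.403 for Cacng3, 13.4 for Cacng6, 30.9 for Scn3b and 6.44 for Scn4a. In this library the skeletal muscle list summed to 5716 CPM and the neuron list to 144.7, and their part was not tested. The limit used is for 4 libraries, so the 3 controls could not be flagged. Control replicate 3, with a skeletal muscle list of 4976 CPM, stood at 33.5 CPM for Cacna1s, 13.1 for Cacng1, 9.73 for Cacng6 and 5.27 for Scn4a. Cacna1g was lower in iSDmut than in iNkx2.2 (log2 fold change -0.87, edgeR), a call kept in 9 of 16 alternatives. The iSDmut line has no untreated libraries of its own, so mutation, cell line and Nkx2-2 RNA level cannot be told apart.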

How the results depend on the processing

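With 1 library left out, the number of members called ran from 0 to 7 at 8 weeks (4 with all libraries), 0 to 1 for the difference of islet effects (0), 4 to 10 for iNkx2.2 against pMN (9), 1 to 3 for iSDmut against pMN (3) and 0 to 3 for iSDmut against iNkx2.2 (1), and stayed at 0 for E15.5 and 4 weeks. DESeq2 called 4 at 4 weeks, 2 for the difference, 5 for iSDmut against pMN and 2 for iSDmut against iNkx2.2. With no count filter 1 member passed at 4 weeks and 1 for the difference, where total library size also gave 1. Total library size moved the median of all genes by 0.17 in the difference and by 0.10 for iNkx2.2 against pMN. The replicate block gave 19 for iNkx2.2 against pMN. It gave 10 for iSDmut against pMN and 3 for iSDmut against iNkx2.2, where only 2 pairs exist and the samples share a number only. Lane 2 libraries alone gave 5 for iNkx2.2 against pMN, and 1 and 0 for the 2 iSDmut comparisons, where iSDmut then has 1 library and the other groups supply the spread. The block gave 3 at 8 weeks and 0 at 4 weeks, with same-numbered correlations of -0.072 and -0.121 at 8 weeks. Members with a site numbered 5 by the authors' table, 19 by final sites in the gene or within 50 kb and 21 by GEM events there. The Cacng5 value at E15.5 reversed to 0.63 without control replicate 2, and ran from -3.30 to 0.63 with 1 library left out. The cause of these changes was not tested, beyond the smaller number of libraries. Of single-gene values, 327 kept their direction and side of the threshold, 58 lost and 12 gained significance, and 1 reversed. Groups of 2 or 3 libraries and members with few counts, such as Cacna2d4, limit what could be detected.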
